A study of Mus musculus with 16 samples.

Results

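The subject is how far the effect of entinostat on tumour-infiltrating CD8 T cells differed between an early and a late day, gene by gene. The difference was the entinostat effect at day 17 minus the entinostat effect at day 10, each an effect against vehicle on the same day, and it was tested over all 16 libraries. It was read in the genes with a mean of at least 16 CPM, that is, counts scaled to the size of the library, over the 16 libraries, which were 9772 of the 24028 genes in the table, and 17414 genes entered the test. Just inside that minimum lay Arpp21 at 16.009 CPM, with a difference of −0.61 on the log2 scale, and just outside it F11r at 15.995 CPM, with −2.12. The gene model Gm9125, at 4.36 CPM, was the only gene under the minimum whose difference passed the test. BALB/c mice carried tumours of TS/A, a cultured mouse mammary adenocarcinoma line placed in the second mammary pad, and the drug or its vehicle was given each day from day 7. Groups 1 and 2 were vehicle and entinostat at 20 mg/kg with tumours taken at day 10, 3 days after the first dose. Groups 3 and 4 were vehicle and the same entinostat dose with tumours taken at day 17, 10 days after it. Each group had 4 libraries, all from cells sorted as live, CD45.2+, CD8+ and CD4-. The title of the series puts the question as one of treatment duration. Age and sex of the mice are not stated in the labels, which also do not say whether a library was 1 mouse or a pool, and the p-values therefore rest on the spread among libraries, part of which may be technical.

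Entinostat inhibits class I histone deacetylases, enzymes that take acetyl groups off histone tails and work inside repressor complexes, and acetylated chromatin is in general open to transcription. CD8 T cells kill by releasing perforin and granzymes from granules, and in tumours they come to carry inhibitory receptors such as TIM-3 and the ectonucleotidase CD39 as stimulation by antigen goes on. An inhibitor can act on a gene directly within hours, or later through changes in which cells are present and how they are stimulated. A bulk measurement does not separate those, nor a fall in the number of cells of 1 type from less RNA per cell.

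Total counts ran from 2585561 to 6975904 in 15 libraries, and the other library, entinostat day 17 replicate 3, had 554593. Counts of Actb differed far less, being 1618 there and between 2415 and 3265 elsewhere, so that Actb stood at 2917 CPM by library size in the shallowest library and at 468 to 963 CPM in the others. Gzmb and the summed CD8 markers were also highest in the shallowest library. Whether duplicate reads were removed is not given in the sources used here, and the part of this in the printed CPM and differences was not tested. The 7 CD8 T cell markers summed to between 1570 and 3130 CPM in every library and none was at 0. Their natural killer counterparts summed to at most 20.9 CPM, and 1 or 2 of those 6 markers were at 0 throughout a group. The 13 plasmacytoid dendritic cell markers, by contrast, summed to between 696 and 3247 CPM, and 14 macrophage and monocyte markers to between 126 and 839 CPM. With vehicle the plasmacytoid sums were 1482 to 2793 CPM at day 10, beside CD8 sums of 1808 to 2052. At day 17 they were 2633 to 3247, above CD8 sums of 1570 to 1962. With entinostat they lay below the CD8 sums, at 747 to 1179 against 1702 to 2165 and then 696 to 904 against 2008 to 3130. The part of this imbalance in the drug effects was not tested. The 7 fibroblast markers ranged from 13.3 to 529 CPM at day 10 and from 360 to 2144 at day 17. Fold changes are relative to a shift of all genes: with TMM scaling, which equates the bulk of genes, the median log2 fold change over the 9772 genes was −0.17 at day 10, −0.22 at day 17 and −0.10 for the difference, and with library size alone it was −0.01, −0.06 and −0.11.

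Entinostat moved many genes on each day, but its effect was shown to differ between the days for few. A gene is called here at a Benjamini-Hochberg adjusted p below 0.05 in edgeR's quasi-likelihood test. Of the 9772 genes, 1471 were called for the drug effect at day 10 (15.1%), with 309 higher (3.16%) and 1162 lower (11.9%), and with the replicate number as a block within each day, whose numbers paired the libraries at day 10, it was 868. At day 17 it was 2459 genes (25.2%), with 319 higher (3.26%) and 2140 lower (21.9%). The difference between days was called in 81 genes (0.829%), above 0 in 38 (0.389%) and below 0 in 43 (0.44%). The share of calls above 0 among those 81 was 46.9%. It was 59% with DESeq2, 59.4% with edgeR's RLE scaling, 57.7% with a minimum count of 50 and 68.4% with log2 total count as a covariate. For the drug effects the share of calls above 0 was 21% at day 10 and 13% at day 17. It moved to 51.9% and 34.1% with library size alone, to 48.4% and 43.2% in a fit of the genes of at least 16 CPM alone, and to 40.5% and 50.3% with cyclic loess. The day 17 share was 28.2% with DESeq2 and 25.2% with RLE scaling. The excess of falls thus moved with the setting, and it was absent at day 10 with library size alone and at day 17 with cyclic loess. Some of these settings also changed the filter (the fit of the genes of at least 16 CPM) or the tool (cyclic loess, with limma-voom). At an unadjusted p below 0.05 the difference held 1771 genes (18.1%), day 10 held 32% and day 17 held 40.1%. Over all 17414 genes tested, 14.6% were called at day 10, 18.3% at day 17 and 0.471% for the difference.

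Most genes called on either day had no called difference. Of 770 genes called on both days, 753 had the same sign and 17 the opposite sign. Among the 58 genes higher on both days 0 had a called difference in edgeR, DESeq2 or limma-voom (3 at an unadjusted p below 0.05), and among the 695 lower on both days 11 did. Another 1689 genes were called at day 17 alone, of which 39 had a called difference, and 701 at day 10 alone, of which 14 did. A gene called on 1 day alone is therefore not shown to respond on that day alone. Across the 9772 genes the effects of the 2 days had a Pearson correlation of 0.647 and a Spearman correlation of 0.452, given as a description, since genes share the 16 libraries and their scaling.

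**Figure D1:**
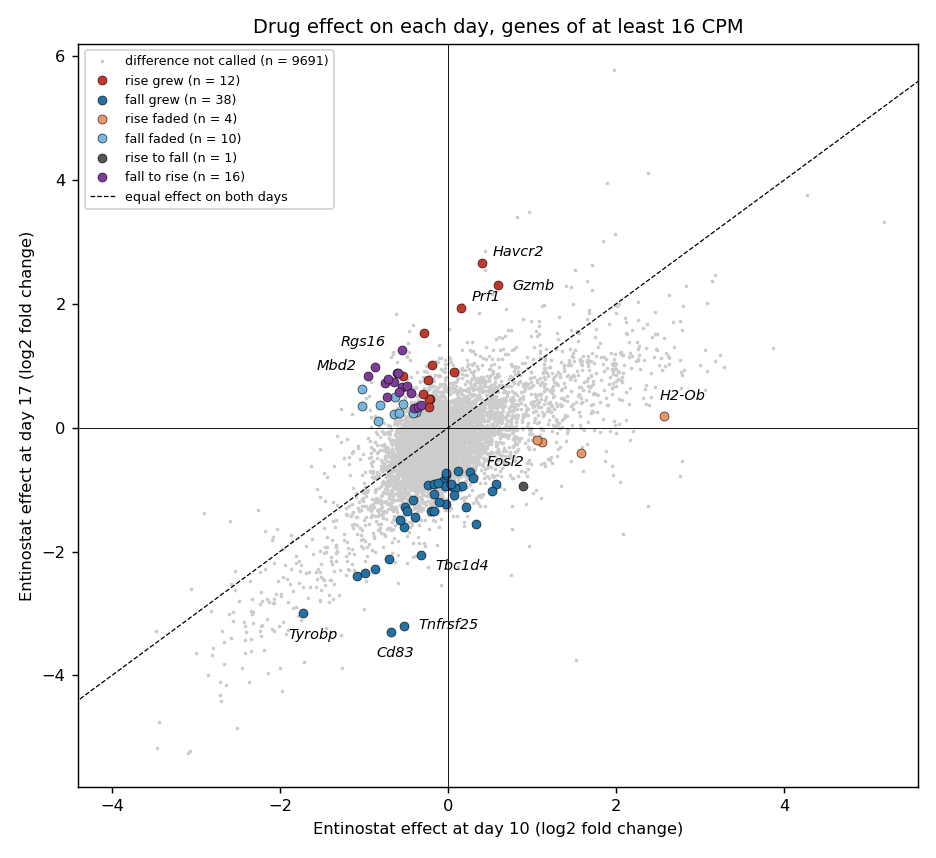
Entinostat effect at day 17 (vertical axis, log2 fold change) against day 10 (horizontal axis, log2 fold change) for the 9772 genes of at least 16 CPM. Grey points are genes whose difference was not called, coloured points the 81 called genes by class, and the dashed line marks equal effects; called genes lie far from that line, and Havcr2, Gzmb and Prf1 lie high above it while Cd83 and Tnfrsf25 lie far below.

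The 81 genes were sorted by the calls on each day. An effect grew when it was called at day 17 and was larger than a day 10 effect that was not called or had the same sign, faded in the reverse case, and changed sign when both days were called in opposite directions. By that rule 12 rises and 38 falls grew, 4 rises and 10 falls faded, 16 falls turned into rises and 1 rise turned into a fall. In 16 of the 81 genes the groups of libraries overlapped on neither day and lay in opposite order, against 0.43% of all 9772 genes. The 81 were chosen by a test on these same libraries, which favours such an order, so the count is a description. Groups did not overlap at day 10 in 24.6% of all genes and at day 17 in 25.7%. The change between days came more from the entinostat groups than from the vehicle groups in 63 of the 81 genes, by the size of the day 17 against day 10 log2 fold change within each treatment. This was so in 37 of 38 falls that grew and 10 of 12 rises that grew, but in 8 of 16 falls that became rises and 5 of 10 falls that faded.

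The rises that grew included Prf1 and Gzmb of the cytotoxic granule list and Havcr2 and Entpd1 of the inhibitory receptor list. Prf1 encodes perforin, the pore former of cytotoxic granules. Its vehicle libraries stood at 189, 160, 192 and 149 normalised CPM at day 10 and 183, 149, 143 and 114 at day 17, and its entinostat libraries at 164, 222, 198 and 185 at day 10 and 561, 640, 639 and 427 at day 17. The 12 libraries other than entinostat day 17 lay close together, and all 4 of entinostat day 17 lay above them. The entinostat effect was 0.16 ± 0.15 on the log2 scale (SE) at day 10 and 1.93 ± 0.15 at day 17, with a difference of 1.78 ± 0.21 (edgeR adjusted p = 0.00138).

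Havcr2 encodes TIM-3, an inhibitory receptor of effector and exhausted T cells. With vehicle it stood at 55.9, 51.6, 71.2 and 43.7 CPM at day 10 and 39, 46.1, 37.8 and 43.6 at day 17. With entinostat it stood at 72.9, 69.8, 78 and 74 CPM at day 10 and 319, 354, 187 and 179 at day 17. Groups overlapped slightly at day 10 and stood far apart at day 17, where the 2 lower entinostat libraries were still above every vehicle library. The effect was 0.41 ± 0.19 at day 10, 2.66 ± 0.20 at day 17, and the difference 2.26 ± 0.27 (edgeR adjusted p = 0.00138). Both genes were called for the difference in each of 31 alternative fits, with differences from 1.65 to 1.90 for Prf1 and from 2.07 to 2.40 for Havcr2.

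Entpd1 encodes CD39, which breaks down extracellular ATP. Vehicle libraries stood at 55, 67.9, 98.8 and 75.6 CPM at day 10 and 88.6, 46.1, 46.6 and 37 at day 17, entinostat libraries at 59.5, 54.3, 62.6 and 66.3 and 173, 195, 109 and 148. All entinostat libraries were higher at day 17 than any was at day 10, and the day 17 groups did not overlap. The difference was 1.82 ± 0.33 (edgeR adjusted p = 0.0279), and it was not called without vehicle replicate 3 of either day, entinostat day 10 replicate 1 or 3, or entinostat day 17 replicate 1 (highest adjusted p 0.0658, differences from 1.64 to 2.28). Itgav, the integrin alpha V chain that with integrin beta chains binds matrix proteins and activates latent TGF-beta, had effects of −0.20 ± 0.16 and 1.01 ± 0.16 and a difference of 1.20 ± 0.22. Its call was lost without vehicle day 10 replicate 3, entinostat day 10 replicate 1 or 3, or entinostat day 17 replicate 1, and with a replicate block (highest adjusted p 0.0739). Ctsd, the lysosomal protease cathepsin D, had all 4 entinostat libraries below vehicle at day 10 and above it at day 17, with effects of −0.24 ± 0.13 and 0.76 ± 0.14 and a difference of 1.01 ± 0.19. The call was lost without vehicle or entinostat day 10 replicate 1 or 3 or entinostat day 17 replicate 1 (highest adjusted p 0.0647).

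Tnfrsf9, the costimulatory receptor 4-1BB, stood at 255, 217, 196 and 193 CPM with vehicle and 260, 223, 225 and 200 with entinostat at day 10, and at 225, 206, 230 and 229 and 432, 430, 463 and 335 at day 17. Entinostat libraries were mixed among vehicle at day 10 and all above it at day 17. Its difference was 0.82 ± 0.16 (edgeR adjusted p = 0.0354), called in 7 of the 16 fits that each left out 1 library. Gzmb, the granule protease granzyme B, stood at 298, 240, 357 and 268 CPM with vehicle and 518, 434, 467 and 339 with entinostat at day 10, and at 210, 194, 196 and 148 and 737, 629, 1720 and 686 at day 17. Entinostat libraries were higher on the whole at day 10, all but 1 above every vehicle library, and all were higher at day 17, the shallowest library most of all at 1720 CPM. Its effect was 0.59 ± 0.25 at day 10 and 2.31 ± 0.26 at day 17, and the difference of 1.71 ± 0.35 (edgeR adjusted p = 0.0423) became 1.27 without the shallowest library (adjusted p = 0.0119). That call held in 5 of the 16 fits that left out 1 library and was lost with robust dispersions, cyclic loess and the total count covariate.

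The other 5 rises that grew were the glycolytic kinase Pgk1 (0.68 ± 0.14), the sorting nexin Snx25 (1.37 ± 0.29), the replication checkpoint protein Topbp1 (0.69 ± 0.15), the glycosylation enzyme subunit Rpn1 (0.56 ± 0.12) and the helicase subunit Mcm5 (0.85 ± 0.19), each value being the difference. Over all 12 genes the median effect was −0.22 at day 10 and 0.86 at day 17. None was called at day 10, where 8 of the 12 had a negative estimate. Within entinostat the median change from day 10 to day 17 was 0.94, and within vehicle −0.25.

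Promoter sequences are shown for Prf1, Havcr2 and Gzmb, the effector genes whose rise grew, for Rgs16, which had the smallest p among falls that became rises, and for Fosl2, an AP-1 subunit whose effect moved the other way. They are RefSeq promoters of GRCm38.p6, 250 bases before to 50 after a start, 5′ to 3′ on the gene's strand, and capitals mark any of 4 short motifs searched on both strands. The TATA box was taken as TATAAA, where the general transcription machinery can bind. The GC box, which SP1-like factors recognise, was taken as GGGCGG. The CCAAT box, known for the NF-Y complex, was taken as the 5 letters of its name. An AP-1 site, where dimers of FOS and JUN proteins bind, was taken as TGANTCA. Their positions are chr10:61297586-61297885 on the plus strand for Prf1, chr11:46454681-46454980 plus for Havcr2, chr14:56262285-56262584 minus for Gzmb, chr1:153740103-153740402 plus for Rgs16 and chr5:32136222-32136521 plus for Fosl2.
Prf1: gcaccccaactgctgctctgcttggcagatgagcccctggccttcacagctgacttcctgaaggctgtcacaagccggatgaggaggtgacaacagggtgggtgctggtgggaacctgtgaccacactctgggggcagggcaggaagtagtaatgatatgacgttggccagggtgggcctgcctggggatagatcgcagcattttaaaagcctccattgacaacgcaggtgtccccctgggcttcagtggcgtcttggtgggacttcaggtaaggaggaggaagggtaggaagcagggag
Havcr2: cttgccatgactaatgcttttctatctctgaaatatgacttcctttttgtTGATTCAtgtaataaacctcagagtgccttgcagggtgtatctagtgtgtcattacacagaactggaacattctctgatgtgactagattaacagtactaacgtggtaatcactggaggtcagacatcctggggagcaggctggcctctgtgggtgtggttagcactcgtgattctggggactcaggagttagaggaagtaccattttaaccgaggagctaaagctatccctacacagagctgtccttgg
Gzmb: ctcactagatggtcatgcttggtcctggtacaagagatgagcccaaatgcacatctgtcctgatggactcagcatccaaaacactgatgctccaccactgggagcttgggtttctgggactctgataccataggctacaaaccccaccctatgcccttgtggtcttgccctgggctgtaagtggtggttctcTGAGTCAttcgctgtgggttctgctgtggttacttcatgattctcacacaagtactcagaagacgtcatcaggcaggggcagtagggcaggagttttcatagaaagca
Rgs16: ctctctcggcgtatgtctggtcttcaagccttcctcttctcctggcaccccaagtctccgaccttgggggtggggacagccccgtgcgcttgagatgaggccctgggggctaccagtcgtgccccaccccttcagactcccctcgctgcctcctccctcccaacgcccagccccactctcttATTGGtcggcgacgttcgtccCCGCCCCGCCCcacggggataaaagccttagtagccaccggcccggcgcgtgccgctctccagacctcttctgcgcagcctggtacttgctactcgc
Fosl2: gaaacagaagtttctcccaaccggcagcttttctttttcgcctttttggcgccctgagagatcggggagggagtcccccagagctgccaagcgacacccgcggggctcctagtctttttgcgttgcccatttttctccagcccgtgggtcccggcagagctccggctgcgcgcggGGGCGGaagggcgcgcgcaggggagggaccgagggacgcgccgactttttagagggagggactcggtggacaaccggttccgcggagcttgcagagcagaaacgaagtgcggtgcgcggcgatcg

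Prf1 holds none of the 4 motifs in this window, Havcr2 and Gzmb 1 AP-1 match each, Fosl2 1 GC box, and Rgs16 a CCAAT box in reverse and 2 overlapping GC boxes in reverse. Promoters were counted for 31 of the 38 called genes with a difference above 0 and 33 of the 43 below 0. In all they were counted for 7892 of the 9772 genes. Promoters on chromosome 18, which holds Bambi, Zeb1, Synpo and Mex3c, were left out of every count, and none was counted for Mbd2. An AP-1 match stood in 3 of 15 promoters of the rises that grew (Havcr2, Gzmb and 1 of 2 of Tnfrsf9), in 1 of 39 of the falls that grew and in 5.0% of all 10094 promoters. A GC box stood in 11 of 13 promoters of the falls that became rises and 9 of 11 of the falls that faded, against 63.1% of all, and in 8 of 15 of the rises that grew. A TATA box stood in 3 of 43 promoters of genes with a difference below 0, in 0 of 39 above 0 and in 6.9% of all. The CCAAT box stood in 18 of 39 promoters above 0 and 15 of 43 below 0, against 37.7% of all. These are letter matches in short windows and not binding sites.

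**Figure D2:**
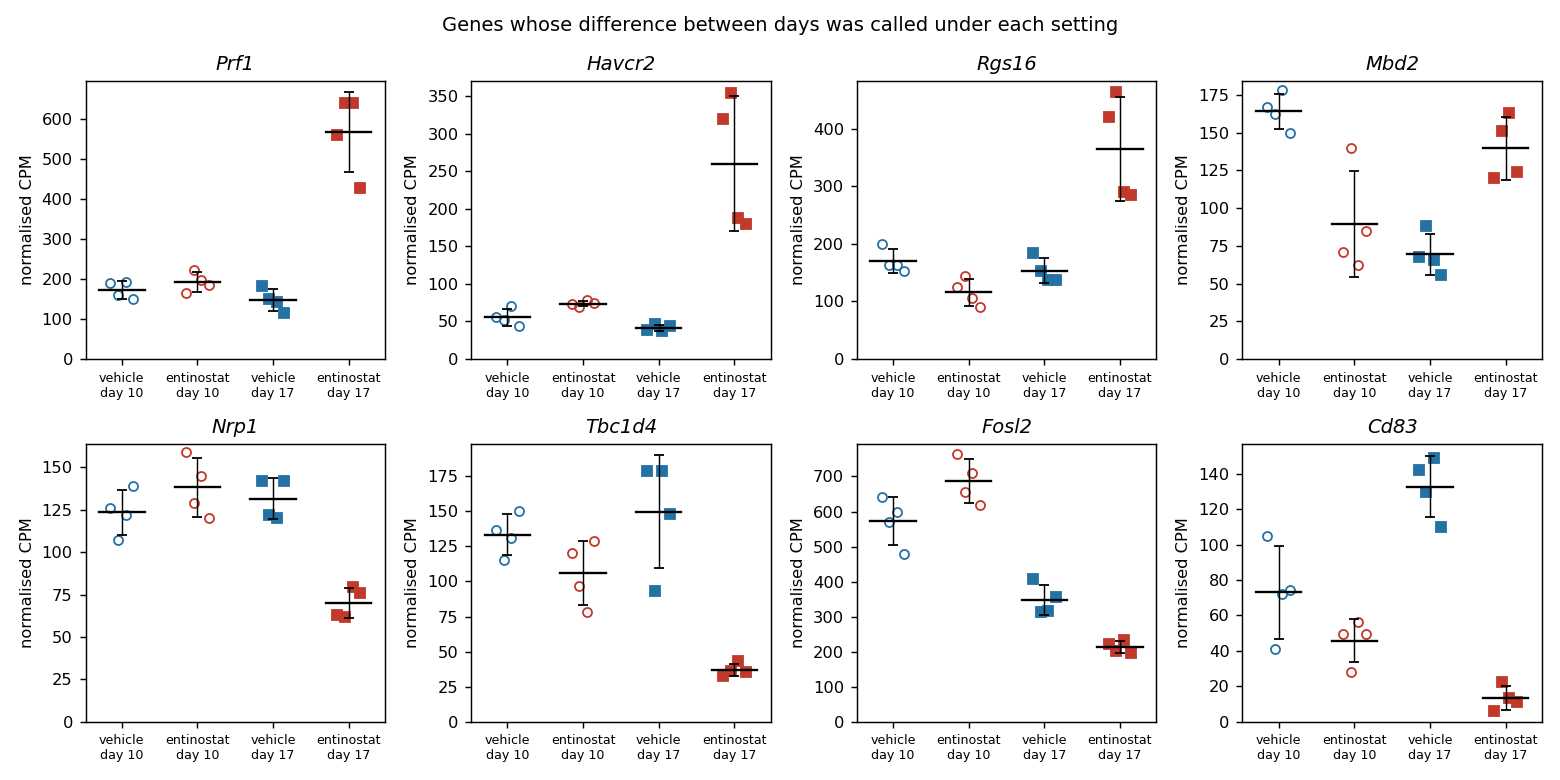
Normalised CPM (vertical axes, linear from 0) in each of the 16 libraries, by treatment and day, for the 8 genes whose difference was called in all 31 alternative fits. Points are libraries, horizontal bars means and whiskers SD (n = 4); the entinostat day 17 libraries lie above the vehicle day 17 libraries in the upper row and below them in the lower row.

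Falls that grew were the most numerous class. In all 38 every entinostat library lay below every vehicle library at day 17, a separation that 25.7% of all genes showed in either direction. The class requires a called fall at day 17, which favours that order, so the count is a description. The median effect of these falls was −0.14 at day 10 and −1.18 at day 17. At day 10, 27 of the 38 were not called and 12 had an estimate of the opposite sign. Over time the vehicle groups changed by a median of −0.06 and the entinostat groups by −1.13.

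Tnfrsf25 encodes DR3, a receptor of the TNF family that costimulates T cells. Vehicle libraries stood at 39.7, 52.9, 62.4 and 40.8 CPM at day 10 and 36, 33.6, 23.4 and 43.9 at day 17, entinostat libraries at 32.7, 27.8, 31.5 and 43.8 and 4.18, 2.15, 4.98 and 4.41. Entinostat at day 17 left at most 4.98 CPM in any library where vehicle had at least 23.4. The effect was −0.53 ± 0.25 and then −3.20 ± 0.31, with a difference of −2.67 ± 0.40 (edgeR adjusted p = 0.0101), which was lost only with cyclic loess among the alternative fits (limma-voom adjusted p = 0.0516). Cd83, a surface protein of mature dendritic cells and activated lymphocytes, stood at 105, 41, 72.1 and 74.5 CPM with vehicle and 49.8, 28.1, 56.1 and 49.5 with entinostat at day 10. At day 17 it stood at 142, 130, 149 and 110 with vehicle and 6.11, 22.6, 13.3 and 11.2 with entinostat. Vehicle libraries were higher at day 17 than at day 10 while entinostat libraries were lower, and the difference was −2.62 ± 0.44 (edgeR adjusted p = 0.0188).

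Tbc1d4 encodes a Rab GTPase-activating protein that restrains the traffic of glucose transporters to the cell surface. It stood at 137, 115, 131 and 150 CPM with vehicle and 120, 97.1, 78.3 and 129 with entinostat at day 10, then at 179, 93.2, 179 and 148 with vehicle and 32.5, 36.1, 43.1 and 35.6 with entinostat. The 4 entinostat libraries at day 17 were the lowest of all 16, with a difference of −1.74 ± 0.27 (edgeR adjusted p = 0.0123). Nrp1, a co-receptor of semaphorins and VEGF, stood at 126, 107, 122 and 139 CPM with vehicle and 159, 129, 145 and 120 with entinostat at day 10, then at 142, 122, 120 and 142 with vehicle and 62.7, 61.7, 79.6 and 76 with entinostat. Here too 12 libraries were alike and the 4 of entinostat day 17 lower, with effects of 0.16 ± 0.12 and −0.93 ± 0.12 and a difference of −1.10 ± 0.17 (edgeR adjusted p = 0.0125).

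Fosl2, the AP-1 subunit FRA2, followed another course. Vehicle libraries stood at 640, 571, 599 and 478 CPM at day 10 and 406, 313, 317 and 356 at day 17, entinostat libraries at 765, 656, 709 and 619 and 223, 202, 234 and 197. Its level was lower at day 17 under both treatments, with a day 17 against day 10 log2 fold change of −0.72 within vehicle and −1.69 within entinostat. The drug effect was 0.26 ± 0.11 at day 10, not called, and −0.71 ± 0.11 at day 17, a difference of −0.97 ± 0.16 (edgeR adjusted p = 0.0146). Hs3st3b1, a sulfotransferase of heparan sulfate, was already lower at day 10 (−0.53 ± 0.13) and fell further at day 17 (−1.60 ± 0.14), a difference of −1.07 ± 0.19 that was lost without vehicle day 10 replicate 1 or entinostat day 17 replicate 1 and with the replicate block within each day (highest adjusted p 0.102).

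The remaining falls that grew spanned several functions, here grouped after their values were seen. Transcription and chromatin regulators among them were Zeb1 (difference −1.11 ± 0.20), Klf3 (−1.21 ± 0.23), Etv3 (−0.94 ± 0.19), the polycomb subunit Cbx7 (−1.48 ± 0.31), the cohesin loader Nipbl (−0.71 ± 0.15), the circadian repressor Cry2 (−1.49 ± 0.32), Rere, Irf2bp2 and Sbno2. Enzymes of glycan and sialic acid synthesis were St6gal1 (−0.91 ± 0.18), Cmah (−1.06 ± 0.20) and Man1c1 (−1.30 ± 0.27). Signalling proteins were the PI3 kinase regulatory subunits Pik3r1 (−0.76 ± 0.16) and Pik3r2 (−1.89 ± 0.41), the TGF-beta receptor Tgfbr1 (−1.14 ± 0.25) and the apoptosis inhibitor Birc3 (−0.75 ± 0.16). The RIKEN cDNA gene 2410002F23Rik, outside the rule for naming genes, was called in every fit that left out 1 library, with a difference of −1.04 ± 0.17. Of the others just listed only Zeb1, Klf3, Sbno2, Cmah and St6gal1 were called in 8 or more of the 16 fits that left out 1 library, St6gal1 in 8.

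Transcripts of plasmacytoid dendritic cells, macrophages and monocytes were lower with entinostat on both days, mostly without a called difference. Tyrobp, which encodes the adaptor DAP12 of macrophages and natural killer cells, stood at 152, 89.9, 138 and 150 CPM with vehicle and 36.4, 41.2, 38.5 and 42.9 with entinostat at day 10, then at 115, 155, 166 and 157 and 20.6, 14.5, 11.6 and 23.4. Its difference was −1.27 ± 0.27 (edgeR adjusted p = 0.0455), called in 2 of the 16 fits that left out 1 library. It was the only called difference on any of 13 marker lists. Summed plasmacytoid dendritic cell markers stood at 1482 to 2793 CPM with vehicle and 747 to 1179 with entinostat at day 10, and at 2633 to 3247 with vehicle and 696 to 904 with entinostat at day 17; 11 of 11 such markers of at least 16 CPM were lower on each day and 0 had a called difference in edgeR (7 at an unadjusted p below 0.05, 2 in DESeq2, 0 in limma-voom). Macrophage and monocyte markers stood at 320 to 709 and 143 to 211 CPM at day 10, and at 634 to 839 and 126 to 198 at day 17, in the same order. Of 4 CD4 T cell markers 1 fell at day 10 and 2 at day 17. Cd4 itself, in cells sorted as CD4-, had effects of −1.66 ± 0.30 (edgeR adjusted p = 0.00297) and −2.75 ± 0.33 (adjusted p = 2.03e-05). Its difference of −1.09 ± 0.44 was not called (edgeR adjusted p = 0.296). The part of such transcripts in the growth of Cd83, Tyrobp or any other fall was not tested.

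Rises that faded were 4, and all were clear at day 10 with no overlap of the groups. H2-Ob encodes the beta chain of H2-O, which restrains peptide loading of MHC class II. It stood at 6.42, 4.67, 7.04 and 8.37 CPM with vehicle and 35, 54.1, 30.5 and 37.9 with entinostat at day 10, then at 12.6, 9, 17.2 and 11.7 and 15.1, 8.89, 16.6 and 17.6. The separation at day 10 was gone at day 17, where the groups overlapped. The effect went from 2.57 ± 0.33 to 0.18 ± 0.32, a difference of −2.38 ± 0.45 (edgeR adjusted p = 0.0279). Its levels were low, and its mean of 18.3 CPM was close to the minimum of 16. The 8 B and plasma cell markers summed to 28.0 to 51.4 CPM with vehicle and 79.0 to 93.2 with entinostat at day 10. At day 17 they summed to 34.4 to 115 and 58.1 to 110. Their part in the course of H2-Ob was not tested.

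Bambi, a decoy receptor that dampens TGF-beta signalling, stood at 39.7, 44.3, 32.5 and 42.6 CPM with vehicle and 90, 91.1, 85.4 and 78.8 with entinostat at day 10, then at 48.1, 26.7, 30.4 and 29.8 and 28, 28, 28.2 and 30.9. Entinostat about doubled it at day 10, by 1.11 ± 0.18 log2, and at day 17 the entinostat libraries lay among the lower vehicle libraries, at −0.24 ± 0.18. The difference was −1.35 ± 0.25 (edgeR adjusted p = 0.0279) and held in 10 of the 16 fits that left out 1 library, against 9 for H2-Ob; with a replicate block neither was called. Eno2, the gamma enolase, and Kiz, a centrosome protein, followed another course, with day 17 against day 10 log2 fold changes of 1.66 and 1.08 within vehicle and −0.33 and −0.18 within entinostat. Eno2 stood at 5.5, 9.33, 6.16 and 9.15 CPM with vehicle and 21.2, 21.4, 23.1 and 25 with entinostat at day 10, then at 20, 23, 22.1 and 30.5 and 14.1, 25, 13.3 and 18.3, so the day 17 vehicle libraries had reached the level that entinostat showed at day 10. Each of these 2 calls held in only 2 of the 16 fits that left out 1 library.

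Falls that faded numbered 10, and in all 10 the day 17 estimate was above 0 without being called. Setd8 (Kmt5a in the reference table) encodes a methyltransferase of histone H4. It stood at 83.1, 93.6, 91.5 and 98.1 CPM with vehicle and 35.7, 43.5, 44.1 and 56.1 with entinostat at day 10, then at 69.2, 63.8, 61.8 and 40.8 and 71.7, 84.8, 69.7 and 73.6. Entinostat libraries were all lower at day 10 and all higher at day 17. The effect was −1.02 ± 0.16 at day 10 (edgeR adjusted p = 0.00108) and 0.35 ± 0.16 at day 17 (adjusted p = 0.138), a difference of 1.37 ± 0.23 (adjusted p = 0.0161) that was called in every fit that left out 1 library, but not without the shallowest library together with the replicate block within each day (highest adjusted p 0.0531).

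Tmem163, a zinc transporter, stood at 41.6, 29.5, 46.9 and 33.5 CPM with vehicle and 15.2, 15.2, 17.9 and 25.7 with entinostat at day 10, then at 47.1, 32, 37.6 and 33.6 and 59.2, 69.5, 53.1 and 49.5. Its vehicle level was flat (−0.01 log2 between the days), and its entinostat level was 1.64 log2 higher at day 17, from below vehicle to above it, a difference of 1.64 ± 0.31. Ccng1, the p53 target cyclin G1, went from −0.64 ± 0.11 to 0.22 ± 0.12, and Adrbk1 (Grk2 in the reference table), a kinase that desensitises G protein-coupled receptors, from −0.58 ± 0.12 to 0.24 ± 0.12. Slk, a serine-threonine kinase, went from −0.84 ± 0.14 to 0.12 ± 0.14, and Mex3c, an RNA-binding ubiquitin ligase, from −0.81 ± 0.17 to 0.36 ± 0.17. In these 4 genes the vehicle groups differed more between the days, with log2 fold changes of −0.56, −0.56, −0.90 and −1.34 in that order, as against 0.30, 0.25, 0.06 and −0.16 with entinostat. For these 5 genes the call held in 9, 11, 8, 7 and 6 of the 16 fits that left out 1 library, in that order. The other 4 were the RNA-binding proteins Ybx1 and Larp1, the mitochondrial chaperonin Hspd1 and the glycolytic enzyme Tpi1, with differences from 0.64 to 1.14. With the replicate block within each day the calls of Tmem163, Slk, Mex3c, Ybx1, Hspd1 and Larp1 were lost, and without the shallowest library as well none of the 10 was called.

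A change of sign was called in 17 genes, 16 of them from lower to higher. Rgs16 speeds the shut-off of G alpha proteins behind chemokine receptors. Vehicle libraries stood at 200, 163, 164 and 153 CPM at day 10 and 184, 153, 138 and 138 at day 17, and entinostat libraries at 125, 144, 106 and 90.1 and 420, 464, 290 and 285. All 4 entinostat libraries were below vehicle at day 10 and all 4 above it at day 17, while vehicle hardly moved. The effects were −0.55 ± 0.17 (edgeR adjusted p = 0.0383) and 1.26 ± 0.17 (adjusted p = 5.54e-05), with a difference of 1.81 ± 0.24 (adjusted p = 0.00267).

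Mbd2 binds methylated DNA and belongs to the NuRD complex, which also holds the histone deacetylases HDAC1 and HDAC2. It stood at 167, 162, 178 and 150 CPM with vehicle and 70.6, 140, 62.6 and 84.7 with entinostat at day 10, then at 67.8, 88.1, 65.6 and 55.9 and 120, 151, 163 and 124. Entinostat libraries were all lower at day 10, replicate 2 least so, and all higher at day 17, and the day 17 against day 10 log2 fold change within vehicle was −1.24. The effects were −0.87 ± 0.20 (edgeR adjusted p = 0.0103) and 0.99 ± 0.20 (adjusted p = 0.00247), with a difference of 1.86 ± 0.28 (adjusted p = 0.0111).

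Ybx3, an RNA- and DNA-binding cold shock protein, had a difference of 1.38 ± 0.23, called in every fit that left out 1 library. The galactosyltransferase B4galt5 (1.20 ± 0.21), the cohesin regulator Pds5a (1.16 ± 0.21) and the kinase Akt1 (1.01 ± 0.19) were each lost without vehicle day 10 replicate 3 or entinostat day 10 replicate 1 or 3 and in a fit that left out the shallowest library and took a replicate block within each day, and for Pds5a and Akt1 also with that block alone (highest adjusted p 0.0799, 0.0721 and 0.0698, with differences no lower than 1.11, 1.07 and 0.92). In Akt1 the entinostat libraries stood at 131, 218, 143 and 154 CPM at day 10, of which replicate 2 was as high as vehicle (217, 220, 227 and 216), and at 212, 235, 207 and 238 at day 17, all above vehicle (168, 147, 161 and 127). Replicate 2 also stood apart from the other entinostat libraries at day 10 in Pds5a (132, 201, 133 and 130 CPM), Ybx3 (107, 190, 103 and 133), Ppp2cb (36.4, 77.2, 36.4 and 40.7) and Osbp (42.8, 138, 43.2 and 65.6), and was the highest of the 4 each time. Without that library the difference was called in 67 genes and a change of sign in 19.

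Among the other sign changes, picked here after their values were seen, were the GTPase Rac1 (0.72 ± 0.13), the spindle checkpoint protein Mad2l1 (1.22 ± 0.23), the glutamine transporter Slc1a5 (0.68 ± 0.14), the transcription factor Foxk2 (1.48 ± 0.28) and the partners Rab27a (1.16 ± 0.25) and Sytl2 (1.49 ± 0.32), which bring cytotoxic granules to the membrane. Plekha6, a protein with a pleckstrin homology domain, was the only rise that became a fall, from 0.90 ± 0.28 to −0.95 ± 0.29, and its difference was called in 1 of the 16 fits that left out 1 library. Which genes change sign depends on the scaling, while their number was 23 with RLE scaling, 14 with library size alone and 15 with cyclic loess. All 17 had opposite estimates on the 2 days in each of the 31 alternative fits, but Mbd2 alone had both days called in all of them, Ybx3 in 24, B4galt5 in 20 and Rgs16 in 16. With library size alone 3 of the 17 were called at day 10 and 16 at day 17, so that 2 remained sign changes, and with cyclic loess 4 did.

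**Figure D3:**
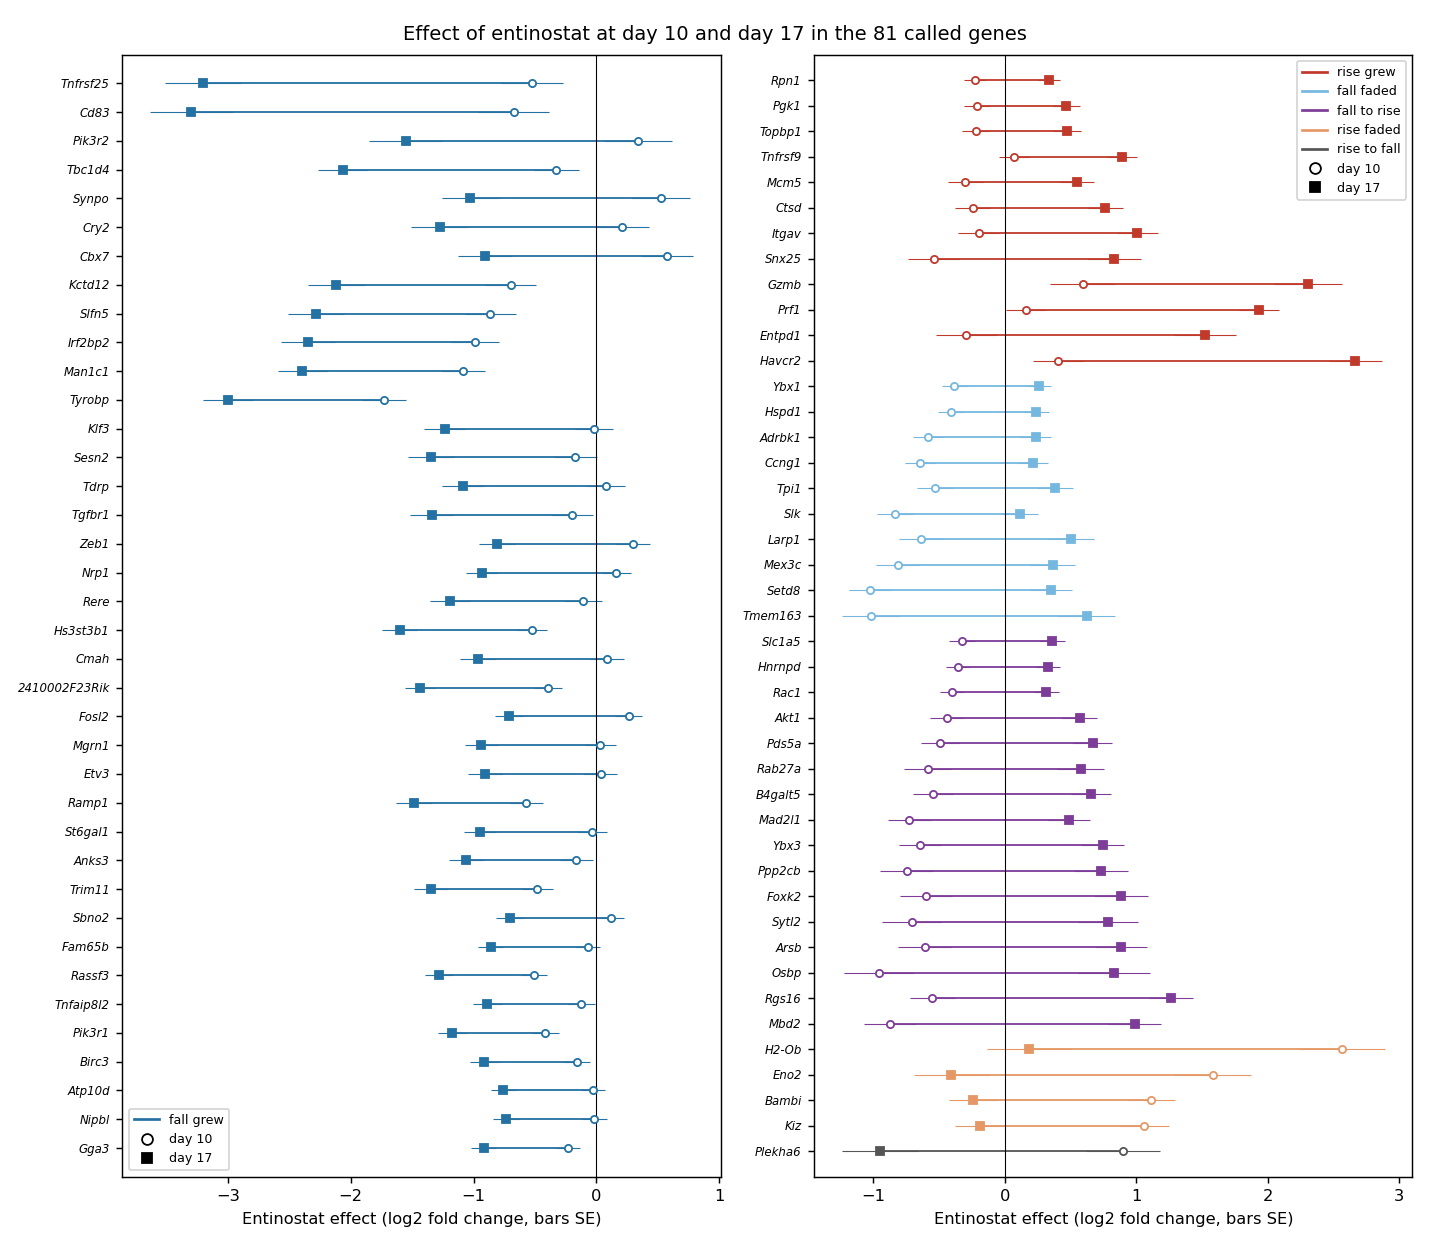
Entinostat effect (log2 fold change, horizontal axes) at day 10 (open circles) and day 17 (squares) for the 81 called genes, coloured by class, with SE as thin bars; the left panel holds the 38 falls that grew and the right panel the other classes. In the left panel every square lies left of its circle, and in the right panel the 16 falls that became rises cross 0 from left to right.

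Gene lists of T cell function were then read for how their members moved, against a background of 0.829% of genes with a called difference. Counts of rises and falls on each day stand against 3.16% of all genes higher and 11.9% lower at day 10, and 3.26% higher and 21.9% lower at day 17. Of 25 such lists 11 held a called difference, in 17 genes in all, and 14 held none. The cytotoxic granule list had 22 members of at least 16 CPM. At day 10, 1 rose and 6 fell, and at day 17, 10 rose and 3 fell. The difference was called in 3, all above 0 (Prf1, Gzmb and Rab27a), and the list's median difference was 0.51, beside −0.10 for all genes. The granzyme B inhibitor Serpinb9 had a difference of 0.71 ± 0.17 that was not called (edgeR adjusted p = 0.0799). At day 10 the list's median effect was −0.11 and with library size alone 0.05, so its sign on that day hung on the scaling. Falls at day 10 were 2 with library size alone and 1 with cyclic loess, and rises at day 17 were 14 and 15. The list of 7 CD8 T cell markers had a median difference of like size, 0.49, with 7 of 7 above 0, 5 at an unadjusted p below 0.05 and 0 called by edgeR and limma-voom (2 by DESeq2), so its median does not set the granule list apart. Its median effect was −0.18 at day 10 and 0.29 at day 17. Of these 7 markers 0 were called higher at day 17 in the reported fit and 4 with RLE scaling. It was 6 with library size alone, in the fit of genes of at least 16 CPM and with cyclic loess.

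Cytokine and chemokine genes held 0 called differences among 13 in edgeR and in limma-voom and 4 in DESeq2, with 6 at an unadjusted p below 0.05. At day 17, 6 rose, and at day 10, 1 rose and 1 fell. Ccl9, a chemokine of the macrophage inflammatory protein family, had the largest estimate, 1.98 ± 0.66 at day 10 and 5.78 ± 0.62 at day 17, with a difference of 3.80 ± 0.94 (edgeR adjusted p = 0.081). Ccl3 stood at 1.23 ± 0.34 (adjusted p = 0.119), interferon gamma (Ifng) at 0.96 ± 0.28 (0.139) and Ccl4 at 0.77 ± 0.24 (0.169). The list's median effect was −0.04 at day 10, or 0.13 with library size alone, and 0.71 at day 17.

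Inhibitory receptors moved both ways. Of 19, the called difference was above 0 in Havcr2 and Entpd1 and below 0 in Nrp1. Pdcd1, the receptor PD-1, rose at day 17 (0.51 ± 0.10) from −0.08 ± 0.10 at day 10, with a difference of 0.58 ± 0.14 that was not called (edgeR adjusted p = 0.0799), and Cd38, another ectoenzyme, stood just outside at 0.88 ± 0.19 (0.0511). Among 14 costimulatory receptors Tnfrsf9 alone was called. Among 21 cytokine receptors Tgfbr1 alone was, the interferon gamma receptor chain Ifngr2 standing at −1.22 ± 0.29 (adjusted p = 0.0733) and the interleukin 2 receptor chain Il2rb at 0.65 ± 0.16 (0.0839).

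Genes of naive and memory cells leaned the other way. Of 18, 3 fell at day 10 and 11 at day 17, and the difference was called in Klf3 alone. The egress receptor S1pr1 stood at −0.75 ± 0.17 (edgeR adjusted p = 0.0573), the repressor Bach2 at −0.91 ± 0.25 (0.121) and the survival gene Bcl2 at −0.71 ± 0.24 (0.193), none called. Tcf7, the transcription factor TCF-1 of stem-like T cells, stood at 0.06 ± 0.12 and −0.15 ± 0.12, with a difference of −0.20 ± 0.17. The list's median effect was −0.07 at day 10, a sign that flipped with library size alone, in the fit of genes of at least 16 CPM and with cyclic loess, and −0.57 at day 17. Falls at day 17 were 6 with RLE scaling, library size alone or cyclic loess and 4 in the fit of genes of at least 16 CPM.

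Of 26 replication genes 15 rose at day 17, and the difference was called in Mcm5 alone. The other helicase subunits had differences of like size, 0.86 ± 0.19 for Mcm6 (edgeR adjusted p = 0.0503), 0.89 ± 0.22 for Mcm3 (0.0799) and 0.61 ± 0.15 for Mcm4 (0.0799), none called. The list's median difference was 0.68, with 25 of 26 members above 0. In the fit of genes of at least 16 CPM alone 8 were called, in DESeq2 11 and in limma-voom 8. Of 22 mitosis genes 5 rose at day 17, and the difference was called in 0 by edgeR, 0 by limma-voom and 1 by DESeq2, with 4 at an unadjusted p below 0.05 and a median of 0.52. The proliferation marker Mki67 stood at 0.52 ± 0.29 (adjusted p = 0.479) and Top2a at 0.85 ± 0.29 (0.203).

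Of 19 glycolysis and hypoxia genes 4 fell at day 10, and 5 rose and 2 fell at day 17, and the difference was called in Pgk1 and Tpi1. The isomerase Gpi1 stood just outside at 0.51 ± 0.12 (edgeR adjusted p = 0.0551), and the median difference was 0.57. With library size alone, the fit of genes of at least 16 CPM and cyclic loess, rises at day 17 were 11, 12 and 11 with 0 falls, and falls at day 10 were 2, 1 and 0. Pgk1, Tpi1 and, among the faded falls, Hspd1 and Ybx1 have processed pseudogenes, with which the counting could share their reads. Heat shock genes had 7 falls at day 10 and 1 at day 17 among 14, with a called difference in Hspd1; the endoplasmic reticulum chaperone Hsp90b1 stood at 0.59 ± 0.16 (adjusted p = 0.106). Those 7 falls were 3 with RLE scaling, 0 with library size alone and in the fit of genes of at least 16 CPM, and 1 with cyclic loess. Among 15 p53 targets and cell cycle inhibitors the called differences had opposite signs, above 0 in Ccng1 and below 0 in the stress sensor Sesn2. Cdkn1a, the inhibitor p21, stood at 0.44 ± 0.20 and 0.39 ± 0.21.

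Some lists moved strongly on both days with few called differences. Interferon-stimulated genes fell in 20 of 26 cases at day 10 and 24 of 26 at day 17, with medians of −0.90 and −1.54. The difference was called in 0 of them by edgeR and limma-voom and 2 by DESeq2, with 9 at an unadjusted p below 0.05, led by Ifi27l2a (−1.05 ± 0.25) and the transcription factor Irf7 (−0.91 ± 0.22). MHC class II genes fell in 4 of 10 cases at day 10 and 9 of 10 at day 17, with medians of −0.89 and −1.84. With cyclic loess the falls were 0 at day 10 and 7 at day 17. Their median difference was −1.11, with 0 of 10 above 0. It was called in 1 each by edgeR, DESeq2 and limma-voom. At an unadjusted p below 0.05 it held 9 of 10, against 18.1% of all genes. Plasmacytoid dendritic cell markers fell beside these lists in 11 of 11 cases on each day, with medians of −1.91 and −2.81, and macrophage and monocyte markers in 4 of 4, with medians of −2.04 and −2.77. Their part in the falls of the interferon-stimulated and MHC class II genes was not tested. The called difference among them, in H2-Ob, came from a rise that faded, so its sign below 0 does not mark a growing fall. Its companion chain H2-Oa stood at 0.29 ± 0.31 and −1.01 ± 0.32, with a difference of −1.30 ± 0.45 that was not called (edgeR adjusted p = 0.205). Cholesterol synthesis genes fell in 2 of 21 cases at day 10 and 16 at day 17, with a median difference of −0.31, called in 0 by edgeR and limma-voom and 1 by DESeq2 (4 at an unadjusted p below 0.05). Falls of that list at day 17 were 10 with RLE scaling and with library size alone, 8 in the fit of genes of at least 16 CPM and 7 with cyclic loess, with 0 at day 10 in all but the RLE fit. Of 24 immediate early genes only Fosl2 had a called difference. Of 10 histone deacetylase genes the difference was called in 0 by edgeR, DESeq2 or limma-voom (2 at an unadjusted p below 0.05). Hdac1 stood at 0.42 ± 0.16 (adjusted p = 0.249), Hdac2 at 0.24 ± 0.15, Hdac3 at −0.07 ± 0.17 and Hdac8 at 0.32 ± 0.35.

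The remaining lists held 0 called differences in edgeR. Natural killer receptors on CD8 T cells rose in 6 of 9 cases at day 17 and 1 at day 10, with a median difference of 0.68, and Klrc1, which encodes the inhibitory NKG2A, stood at 0.96 ± 0.22 (edgeR adjusted p = 0.0551); DESeq2 called 1, and 4 had an unadjusted p below 0.05. Chemokine receptors and integrins had 13 of 21 at an unadjusted p below 0.05 and 8 called in DESeq2, led by Cxcr5 (−2.25 ± 0.53) and Cxcr4 (−0.86 ± 0.21), with a median difference of −0.33. T cell receptor signalling genes had 9 of 21 at that unadjusted p and 4 in DESeq2, led by Cd8a (0.58 ± 0.18) and Cd3g (0.55 ± 0.18). Effector transcription factors had 7 of 19 and 5, led by Id2 (0.86 ± 0.20), a repressor that favours effector cells. Counts at an unadjusted p and in DESeq2 were 3 of 11 and 1 for BCL2 family genes, 2 of 14 and 0 for interferon-induced GTPases, and 3 of 13 and 2 for MHC class I presentation. Ribosomal proteins had 6 of 75 and 1, and respiratory chain genes 22 of 75 and 6, with median differences of 0.30 and 0.24. The background for these counts is 18.1% at an unadjusted p below 0.05. Limma-voom called 1 of the natural killer receptors, 3 of the chemokine receptors and integrins and 1 of the effector transcription factors. It called 0 on the other lists of this paragraph.

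**Figure D4:**
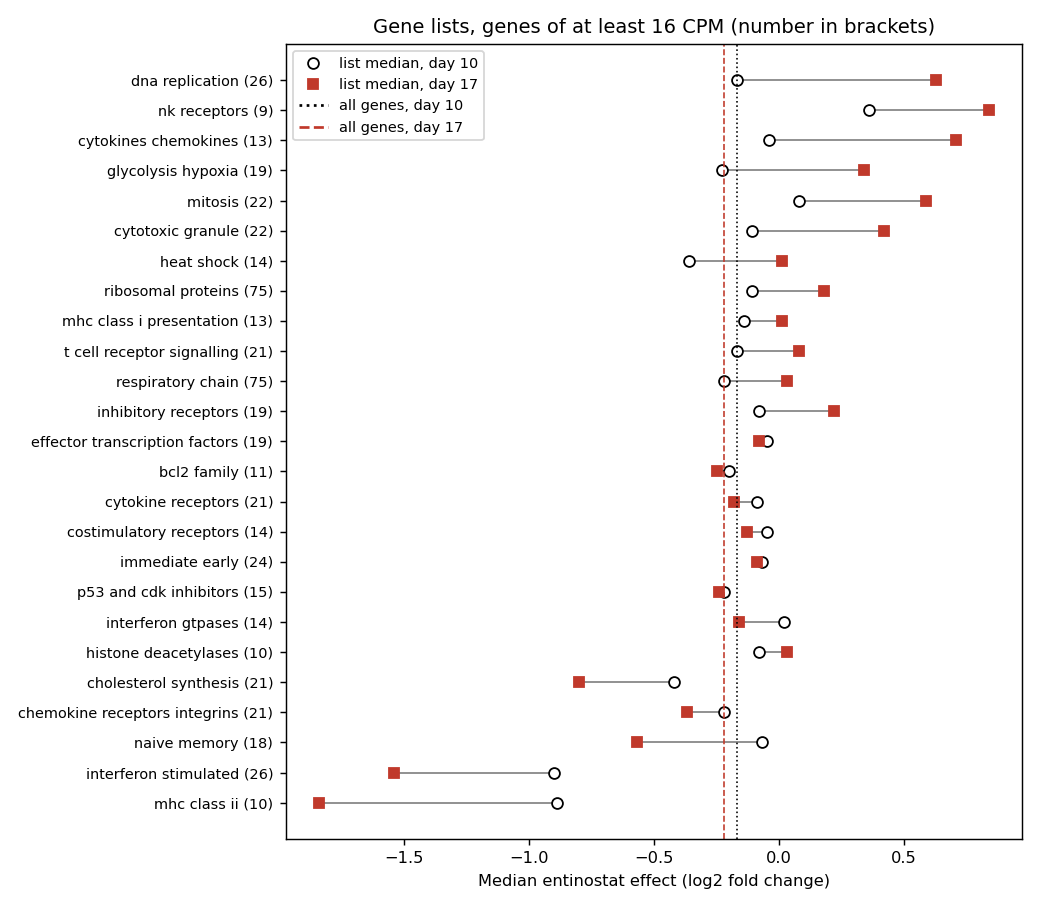
Median entinostat effect (log2 fold change, horizontal axis) at day 10 (open circles) and day 17 (red squares) for 25 gene lists, with the number of members of at least 16 CPM in brackets; the dotted and dashed vertical lines are the medians of all 9772 genes at day 10 and day 17. Natural killer receptors (0.36 and 0.84), cytokines (−0.04 and 0.71) and DNA replication (−0.17 and 0.63) lie far to the right at day 17. MHC class II (−0.89 and −1.84) and interferon-stimulated genes (−0.90 and −1.54) lie far to the left.

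Fxyd7 and Itgam rose strongly on both days without a called difference between days. Fxyd7, a regulator of the sodium pump, had effects of 5.19 ± 0.46 and 3.32 ± 0.42 and a difference of −1.87 ± 0.60 that was not called (edgeR adjusted p = 0.175). For Itgam, which encodes CD11b, the same test gave effects of 3.18 ± 0.34 and 2.47 ± 0.33 and a difference of −0.71 ± 0.46 (0.544). The SE of these differences were thus larger than most. Over all 9772 genes the median SE of the difference was 0.25, against 0.18 for the drug effect on each day.

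The median difference was higher in more expressed genes. It went up with expression, from −0.31 in 2124 genes of 16 to 32 CPM, −0.17 from 32 to 64 and −0.05 from 64 to 128, to 0.01 from 128 to 256, 0.10 from 256 to 512 and 0.24 in 77 genes of at least 512. Calls were 0 above and 5 below 0 from 16 to 32 CPM, 8 and 19 from 64 to 128, and 19 and 7 from 128 to 256. Summed olfactory and vomeronasal receptors, sensory genes that T cells are not known to use, stood at 575 to 1838 CPM with vehicle and 578 to 5614 with entinostat at day 10, and at 628 to 5213 and 3568 to 6780 at day 17. With their share as a covariate the difference was called in 172 genes, all 81 among them. With cyclic loess, which removes a trend with expression, the median difference was 0.01, and 62 of the 81 were among 132 calls. The part of this trend in single calls was not tested.

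The number of called genes hung on single libraries. Among the day 10 vehicle libraries it was 14 when replicate 3 was left out, 18 for replicate 1, 35 for replicate 4 and 42 for replicate 2. Among the day 10 entinostat libraries it was 16 for replicate 3, 21 for replicate 1 and 49 for replicate 4. At day 17 it was 16 when entinostat replicate 1 was left out and 30 for vehicle replicate 3, and it lay between 54 and 101 for each of the other 7 libraries. The day 10 count of 1471 went to 652, 675 and 777 without vehicle replicate 3, 1 and 2 of that day and to 628, 667 and 829 without entinostat replicate 3, 1 and 2. The day 17 count of 2459 went to 1572 without vehicle replicate 1 of that day. Without the shallowest library the difference was called in 69 genes, of which 61 were among the 81. With the replicate number as a block within each day it was called in 34, of which 28 were among the 81, and with a block over all libraries 39. In none of the 31 alternative fits did the difference of any of the 81 genes turn its sign. The 81 were chosen by a test on these same libraries, which favours a kept sign, so this is a description. Called in every fit that left out 1 library were 12 genes, and in all 31 alternative fits 8: Prf1, Havcr2, Nrp1, Tbc1d4, Rgs16, Cd83, Fosl2 and Mbd2.

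**Figure D5:**
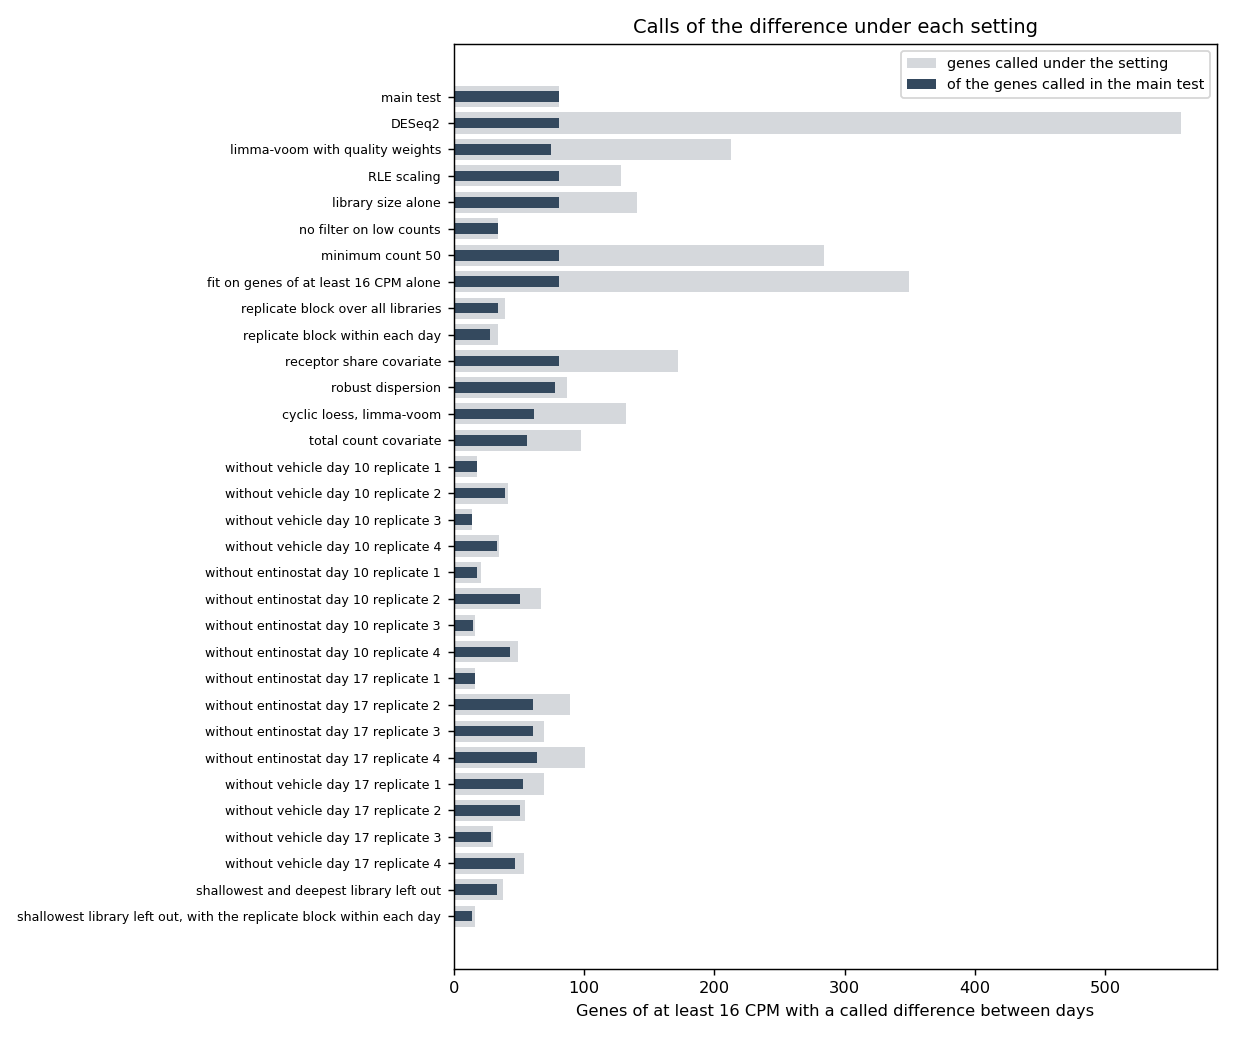
Number of genes of at least 16 CPM with a called difference (horizontal axis) in the reported test and in each of 31 alternative fits (one per line); light bars are all called genes and dark bars those among the 81. The light bars run from 14 to 558 genes and the dark bars from 14 to 81.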

How the data were processed

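RNA of sorted CD8+ CD4- tumour cells was amplified with SMART-seq v4 and made into Nextera XT libraries, per the labels' protocols, chemistry that keeps no strand and no molecular identifiers. The deposited table holds whole-number counts of reads per gene over exons for 16 libraries, not normalised. Per the submitters' processing notes, STAR and mm10 were used. What counted the reads, on which annotation, and whether duplicates were removed is not given in the sources used here. Total counts ran from 554593 to 6975904, so the shallowest library limits precision at day 17 with entinostat.

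Groups came from the sample labels, with 4 libraries each. Genes passing edgeR's filterByExpr (minimum count 10) were fitted with the quasi-likelihood test in edgeR 4.0.16 (R 4.3.3), TMM scaling and 1 mean per group, with 12 residual degrees of freedom and a common biological coefficient of variation of 0.38. The drug effect at day 10, at day 17 and their difference were tested 2-sided, and p-values were adjusted over all 17414 genes by Benjamini-Hochberg. A call was an adjusted p below 0.05. CPM printed per library are TMM-normalised, and mean CPM over the 16 libraries set the minimum of 16. Errors beside log2 fold changes are SE, derived from the test as the log2 fold change over the signed square root of its F statistic. No pair of libraries was identical.

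Genes named were the 6 of smallest p in each class and direction, the 4 of smallest p in each list and a set of 17 fixed genes, without antigen receptor segments, Gm or Rik models and sensory receptors. The genes, lists and tests were chosen with earlier results of these data known. Symbols were matched to the reference by Entrez identifier for 23968 of 24028 genes, and 30 symbols were taken from it. Promoters came from RefSeq, and those on chromosome 18 were left out.

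Same-numbered libraries deviated together from their group means at day 10, with correlations of 0.259, 0.26, 0.24 and 0.27, each library correlating best with its own number. At day 17 they were 0.143, −0.387, 0.15 and −0.0753, so the numbers do not pair the libraries there, and the reported fit has no block. Alternatives were DESeq2 1.42.0, limma-voom with quality weights (limma 3.58.1), other scalings, filters and covariates, replicate blocks and leaving out each library. Cyclic loess, the total count covariate and 2 combined omissions of libraries were chosen after seeing the data. Figures were drawn with matplotlib 3.10.9.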

Additional observations from a re-analysis of the deposited data

Results flagged for a closer look

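All genes below were singled out because the drug effect differed between day 10 and day 17 by a test of the difference itself, an edgeR contrast over all 16 libraries with an adjusted p below 0.05. Values are the log2 difference, day 17 effect minus day 10 effect, with 4 libraries in each of 4 groups. Among rises that grew they were 2.26 for Havcr2, 1.82 for Entpd1, 1.78 for Prf1, 1.20 for Itgav, 1.01 for Ctsd and 0.82 for Tnfrsf9. Among falls that grew they were −2.67 for Tnfrsf25, −2.62 for Cd83, −1.74 for Tbc1d4, −1.10 for Nrp1, −1.07 for Hs3st3b1 and −0.97 for Fosl2. The rises that faded had −2.38 for H2-Ob, −1.99 for Eno2, −1.35 for Bambi and −1.25 for Kiz. The falls that faded had 1.64 for Tmem163, 1.37 for Setd8, 1.18 for Mex3c, 0.95 for Slk, 0.86 for Ccng1 and 0.82 for Adrbk1. Effects that changed sign had 1.86 for Mbd2, 1.81 for Rgs16, 1.38 for Ybx3, 1.20 for B4galt5, 1.16 for Pds5a, 1.01 for Akt1 and −1.85 for Plekha6. Of these 29 genes 11 were called in every fit that left out 1 library, and 18 lost the call in at least 1.

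In 4 groups of values 1 library stood apart from the other 3, with a gap of more than 0.829 of the group's range (Dixon). Entinostat day 17 replicate 4 had 30.9 CPM of Bambi, against 28.0 to 28.2 in the others. Entinostat day 10 replicate 2 had 165 CPM of Ccng1, against 153 to 155, and 201 CPM of Pds5a, against 130 to 133. Vehicle day 17 replicate 4 had 259 CPM of Adrbk1, against 296 to 303. With 124 groups examined, about 1 in 20 would be marked by chance alone.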

How the results depend on the processing

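No alternative turned the sign of the difference in any of the 81 genes, which their choice by a test on these same libraries favours. The number of calls moved widely, and the cause was not tested beyond what each setting itself changes. The count of called differences (81) was 558 with DESeq2, 213 with limma-voom and quality weights, 128 with RLE scaling, 141 with library size alone, 34 with no filter on low counts, 284 with a minimum count of 50, 349 in the fit of genes of at least 16 CPM alone and 172 with the receptor share covariate. With the replicate block over all libraries it was 39 and with the block within each day 34. Among settings chosen after seeing the data it was 132 with cyclic loess, 38 without the shallowest and deepest library and 16 without the shallowest library and with the replicate block. Effects that grew (50) numbered 372, 112, 86, 113, 23, 229, 286, 126, 24, 23, 103, 22 and 13 in the same order of settings. Effects that faded (14) numbered 116 with DESeq2, 57 with limma-voom, 4 with no filter, 35 with a minimum count of 50, 32 in the fit of genes of at least 16 CPM, 34 with the receptor covariate, 5 and 4 with the replicate blocks, 23 with the total count covariate, 5 without the shallowest and deepest library and 0 without the shallowest and with the block. Sign changes (17) numbered 44 with DESeq2, 44 with limma-voom, 7 with no filter, 10 with the receptor covariate, 10 and 7 with the replicate blocks, 11 without the shallowest and deepest library and 3 without the shallowest and with the block. The drug effect at day 10 (1471) was called in 3673 genes with limma-voom, 852 in the fit of genes of at least 16 CPM, 868 with the replicate block within each day, 590 with cyclic loess and 691 without the shallowest library and with the block. At day 17 (2459) it was 1424 with the total count covariate, 1427 without the shallowest and deepest library and 1109 without the shallowest and with the block. Leaving out 1 library gave 14 to 101 differences, 628 to 1934 effects at day 10, 1572 to 2540 at day 17, 9 to 66 that grew, 1 to 19 that faded and 1 to 19 that changed sign.

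Among single genes named, the sign turned in Hdac3 and Cdkn1a. Hdac3 (−0.067) was 0.018 with limma-voom, 0.0010 without the shallowest library and with the replicate block, and from −0.160 to 0.0036 leaving out 1 library. Cdkn1a (−0.052) was 0.163 with limma-voom, 0.0031 with RLE scaling, 0.0065 with a minimum count of 50 and in the fit of genes of at least 16 CPM, 0.0537 with cyclic loess, 0.116 with the total count covariate, 0.0463 without the shallowest and deepest library, 0.162 without the shallowest and with the block, and from −0.221 to 0.106 leaving out 1 library. The shallowest library, in the entinostat day 17 group, had 554593 counts, and without it 69 differences were called.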
